A study of Mus musculus with 14 samples.

Results

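The unfolded protein response genes followed here are 10 genes that mark or carry the reaction of a cell to misfolded protein in the endoplasmic reticulum (ER). They were taken by symbol from the table of gene values: Ddit3, Atf4, Xbp1, Hspa5, Herpud1, Dnajb9, Sdf2l1, Hsp90b1, Trib3 and Chac1. All 10 stood in the table, among 25965 genes. The libraries were made from mouse testis that lacks or carries the X-linked gene Tsga8, which the study's title ties to the shaping of spermatids and to male fertility.

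The 14 libraries formed 6 groups. Whole adult testis gave 3 knockout libraries (genotype Tsga8-/Y) and 3 control libraries (Tsga8+/Y). Spermatids cut from tissue by laser capture microdissection gave 2 knockout and 2 control libraries for each of 2 regions. The first region was round spermatids at steps 4 to 8. The second combined round spermatids at steps 1 to 3 with elongated ones at steps 9 to 16. The labels name no treatment in any group, and they give the age only as adult, for whole testis. The labels do not say whether the regions of a genotype came from the same animals.

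In the ER, the chaperone BiP (gene Hspa5) holds the stress sensors silent until unfolded protein draws it away. The sensor PERK then phosphorylates the initiation factor eIF2alpha, which lets the transcription factor ATF4 be translated and raises Ddit3, Trib3 and Chac1. The sensor IRE1 splices Xbp1 RNA, and the sensor ATF6 is cut to a transcription factor, and both arms raise chaperones and the factors that remove misfolded protein. Spermatids pass much protein through the ER while they build the acrosome, a vesicle over the nucleus. Gene values of this kind show neither the splicing of Xbp1 nor the translation of Atf4.

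Levels are given in RPKM, reads per kilobase of gene at a common sequencing depth, which the authors deposited on a log2 scale. The gene length behind them was the whole span, introns included. Differences are of log2(RPKM + 1), given with the standard error (SE), and a gene was called at an adjusted p under 0.05 in limma. Depth, as the reads behind the scale, was 30388500 to 49147300 in the whole testis libraries, and in the captured ones 23467200 to 72022400.

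The sequences that the response is known to act through were looked up first, in the window that RefSeq gives around each gene's start (build GRCm38.p6, 250 bases before the start and 50 after it). The motifs, each sought on both strands, were the ER stress response element (CCAAT, 9 bases of any kind, CCACG), its variant ERSE-II (ATTGG, 1 base of any kind, CCACG), the XBP1 core TGACGTGG, the C/EBP-ATF element TGATGNAA that ATF4 and its partners bind, and the cAMP response element TGACGTCA. The core and the cAMP response element share their first 6 letters, and the other pairs of motifs share no match in these windows. The 250 bases before the start are shown for the chaperones with the elements, for Herpud1, which had both kinds, and for Ddit3 and Chac1, on which the results turn. Capitals mark the fixed letters of a match.
Hspa5 (chr2:34771840-34772089, plus strand): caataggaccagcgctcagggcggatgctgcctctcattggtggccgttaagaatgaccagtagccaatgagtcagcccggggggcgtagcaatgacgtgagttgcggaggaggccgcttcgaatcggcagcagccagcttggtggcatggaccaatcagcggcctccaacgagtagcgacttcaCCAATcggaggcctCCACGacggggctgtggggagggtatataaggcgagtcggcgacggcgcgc
Hsp90b1 (chr10:86705445-86705694, minus strand): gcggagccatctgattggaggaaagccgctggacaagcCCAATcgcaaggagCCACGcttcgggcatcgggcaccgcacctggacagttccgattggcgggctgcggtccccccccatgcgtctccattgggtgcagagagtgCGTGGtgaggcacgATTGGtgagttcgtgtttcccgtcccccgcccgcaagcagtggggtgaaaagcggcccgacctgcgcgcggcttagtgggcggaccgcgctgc
Herpud1 (chr8:94386179-94386428, plus strand): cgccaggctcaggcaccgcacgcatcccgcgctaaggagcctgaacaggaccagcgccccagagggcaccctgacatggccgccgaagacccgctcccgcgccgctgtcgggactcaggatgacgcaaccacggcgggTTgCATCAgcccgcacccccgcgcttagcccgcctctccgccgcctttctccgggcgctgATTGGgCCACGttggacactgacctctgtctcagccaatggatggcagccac
Chac1 (chr2:119350992-119351241, plus strand): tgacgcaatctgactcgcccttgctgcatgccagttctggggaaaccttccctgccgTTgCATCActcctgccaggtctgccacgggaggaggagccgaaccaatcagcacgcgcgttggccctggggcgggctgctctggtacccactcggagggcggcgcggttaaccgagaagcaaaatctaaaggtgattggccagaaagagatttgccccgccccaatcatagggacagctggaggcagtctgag
Ddit3 (chr10:127290543-127290792, plus strand): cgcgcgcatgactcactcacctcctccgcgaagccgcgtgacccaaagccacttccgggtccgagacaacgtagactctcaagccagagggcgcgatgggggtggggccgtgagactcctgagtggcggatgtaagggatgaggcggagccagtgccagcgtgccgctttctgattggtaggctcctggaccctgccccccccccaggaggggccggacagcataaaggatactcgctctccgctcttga

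With the start site as position 0, the ER stress response element stood at -65 to -47 in Hspa5. Hsp90b1 held it at 2 places, at -212 to -194 on the gene's strand and at -107 to -89 on the opposite strand. Across all 32817 windows 0.119% held this element. ERSE-II stood at -52 to -42 in Herpud1, and 0.0366% of all windows held it. The C/EBP-ATF element was found on the opposite strand in 3 members, Herpud1, Chac1 and Trib3, and in 3.97% of all windows. It lay at 14 to 21 in Trib3, at -193 to -186 in Chac1 and at -112 to -105 in Herpud1. The core motif (0.676% of all windows) and the cAMP response element (1.79%) matched in 0 of the 10 members. The windows of Ddit3, Atf4, Xbp1, Dnajb9 and Sdf2l1 held none of the letters searched.

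**Figure D1:**
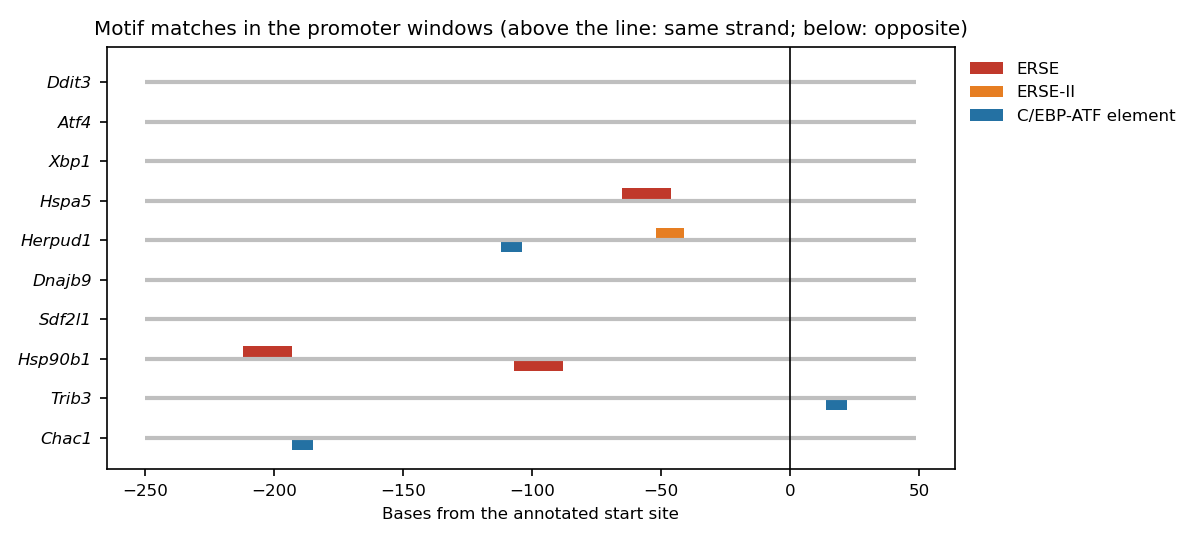
Position of motif matches in the promoter windows of the 10 members, in bases from the RefSeq start site, with 1 line per gene. Hspa5 and Hsp90b1 carry the ER stress response element, Herpud1 carries ERSE-II and the C/EBP-ATF element, and Trib3 and Chac1 carry the C/EBP-ATF element; the other 5 lines are empty.

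The knockout was visible in the targeted gene. Tsga8 had 2.62, 2.12 and 3.2 RPKM in knockout testes, against 106, 88.6 and 104 RPKM in control testes. In the steps 4 to 8 region it had 2.18 and 3.76 RPKM in knockouts, against 239 and 193 RPKM in controls. In the steps 1 to 3 and 9 to 16 region it had 9.42 and 6.96 RPKM in knockouts, against 56.9 and 209 RPKM in controls. Control library 1 of that region stood apart from the other libraries in its elongating spermatid genes. The sum of 13 markers of these cells was 96478 RPKM there and 21331 RPKM in control 2. Prm1, which encodes a protamine of elongating spermatids, had 35227 RPKM there and 6425 RPKM in control 2. Acrv1, an acrosome gene of round spermatids, had 9.99 RPKM there and 94.1 RPKM in control 2. The sum of 13 round spermatid markers, Acrv1 among them, was closer, at 1104 RPKM in control 1 and 1231 RPKM in control 2. The members' differences in that region are also given without it.

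Levels of the members differed widely. On a scale per kilobase of exon, Hsp90b1 had 187 ± 18.2 in knockout testes and 187 ± 1.58 in control testes (SD, n = 3 each). Hspa5 followed with 150 ± 13.9 in knockout and 142 ± 0.978 in control testes. Both encode abundant ER chaperones, GRP94 and BiP. Herpud1 came next in both groups, at 81.8 ± 9.94 in knockout and 64.5 ± 16.1 in control testes. In knockout testes Sdf2l1 (33.8 ± 1.45) and Ddit3 (33.5 ± 1.97) overlapped and stood above Dnajb9 (26.8 ± 1.76). In control testes Dnajb9 (25.8 ± 1.85) came first of these and overlapped with Sdf2l1 (23.6 ± 4.28), which overlapped with Ddit3 (22.1 ± 2.37). Atf4 had 15.5 ± 0.516 in knockout and 12.4 ± 1.4 in control testes, and Xbp1 3.46 ± 0.265 in knockout and 2.57 ± 0.589 in control testes. Chac1 (0.460 in knockout and 0.473 in control testes) and Trib3 (0.144 in knockout and 0.178 in control testes) were near the bottom of what was counted.

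**Figure D2:**
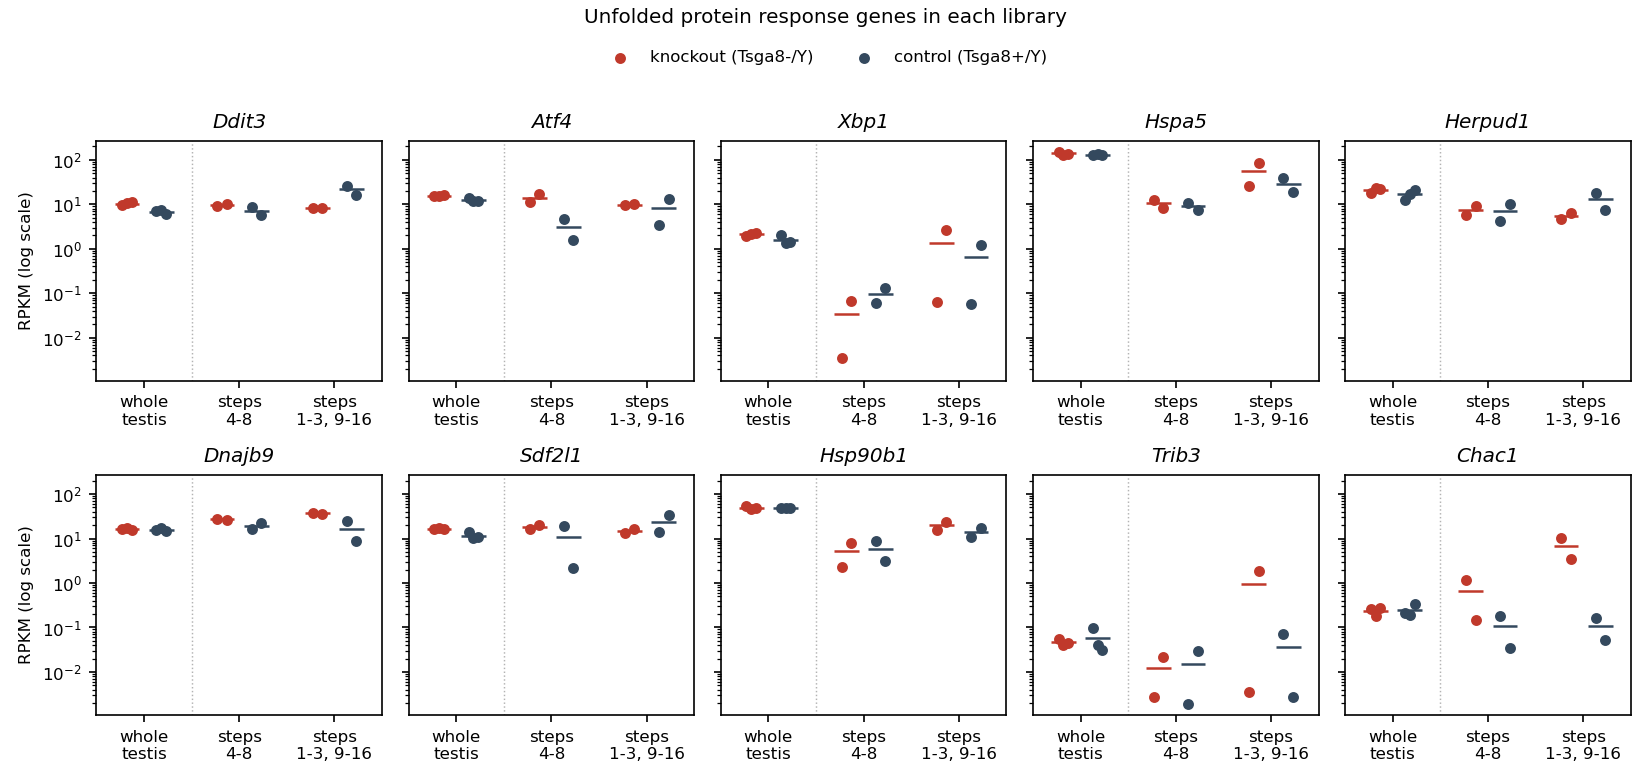
Level of each member in all 14 libraries, in RPKM on a log axis, with knockout libraries left of control libraries within whole testis and each captured region; points are libraries and bars are group means. A library with 0 reads is drawn at the value deposited for it, which stands for 0.9 read. Ddit3 is the member whose knockout testes all lie above the control testes by the called difference, and Chac1 the one with the widest gap in the steps 1 to 3 and 9 to 16 region.

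In whole testis the question was which arms of the response differ when Tsga8 is absent. Ddit3 rose, and it was the single member called. Atf4, Sdf2l1 and Xbp1 had positive differences that missed the threshold. Herpud1, Dnajb9 and the main ER chaperones had intervals on either side of 0, and Trib3 and Chac1 were too low to be tested. Fewer or more cells of a type and less or more RNA per cell cannot be told apart in these bulk libraries.

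Ddit3 encodes CHOP, a transcription factor of the ATF4 arm that can lead a stressed cell to death (chromosome 10, 127290774 to 127296288, plus strand, mm10). It had 9.75, 10.5 and 11 RPKM in knockout testes, against 7.25, 7.32 and 6.01 RPKM in control testes. All knockout testes lay above all control testes. The mean was 10.4 ± 0.611 RPKM in knockout testes and 6.86 ± 0.738 RPKM in control testes (SD, n = 3 each), a ratio of 1.52. This was a log2 difference of 0.54 ± 0.09 (SE), with a 95% interval of 0.32 to 0.76 and a limma adjusted p of 0.0234. Over the alternatives tried, that adjusted p ran from 0.00709 to 0.122. The call was lost without control 2, without control 3, without knockout 2, without knockout 3 and with no filter on low values (limma adjusted p of 0.0645, 0.0767, 0.102, 0.122 and 0.0645, in that order). The difference was 0.45 after median centring, 0.40 after quantile normalization and 0.60 in limma voom on recovered reads, with the call kept in each.

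The annotated 3′ end of Ddit3 overlaps the last 68 bases of Mars, which encodes the methionine tRNA ligase and lies on the opposite strand. Mars averaged 3.22 ± 0.0659 RPKM in knockout testes and 3 ± 0.256 RPKM in control testes (SD, n = 3 each), a log2 difference of 0.08 ± 0.07 with a limma adjusted p of 0.467. Whether strand was used in the counting is not given in the sources used here, so reads in the shared stretch cannot be told apart.

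Atf4 encodes the transcription factor at the head of that arm (chromosome 15, 80255184 to 80257540, plus strand). It had 15.6, 15 and 16 RPKM in knockout testes, against 14, 11.6 and 11.6 RPKM in control testes. The groups did not overlap. Atf4 had a log2 difference of 0.31 ± 0.09, with a limma adjusted p of 0.089. Trib3 (chromosome 2, 152337422 to 152344032, minus strand), a pseudokinase that dampens ATF4 output, and Chac1 (chromosome 2, 119351229 to 119354381, plus strand), an enzyme that breaks down glutathione, did not pass the filter. Trib3 had 12, 12 and 10 reads in knockout testes, against 20, 13 and 7 reads in control testes. Chac1 had 27, 26 and 30 reads in knockout testes, against 20, 30 and 35 reads in control testes. Both groups overlapped for either gene.

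Xbp1 and the genes that the IRE1 and ATF6 arms raise are given next. Sdf2l1, a partner of BiP in folding (chromosome 16, 17130138 to 17132383, minus strand), had 16.1, 17.5 and 16.4 RPKM in knockout testes, against 14.1, 10.1 and 10.8 RPKM in control testes. The groups did not overlap, and control 1 was nearest to the knockouts. Sdf2l1 had a log2 difference of 0.49 ± 0.12, with a limma adjusted p of 0.0534. It passed the threshold without control 1 (0.63, adjusted p = 0.00636), in limma voom on recovered reads (0.55, adjusted p = 0.0347) and with genes under a mean of 5 RPKM left out (adjusted p = 0.0483). Over all genes, these settings called 1531 of 8146, 869 of 8146 and 216 of 2840, in that order. The adjusted p of Sdf2l1 reached 0.189 over the alternatives.

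Xbp1 itself (chromosome 11, 5520659 to 5525893, plus strand) had 1.99, 2.14 and 2.32 RPKM in knockout testes, against 2.02, 1.36 and 1.41 RPKM in control testes. Control 1 lay inside the knockout range. Its log2 difference was 0.29 ± 0.10, with a limma adjusted p of 0.122. Without control 1 it was 0.40 with an adjusted p of 0.0136, and Atf4 then had 0.39 with an adjusted p of 0.019. In that fit 1531 of the 8146 genes tested were called, 1265 of them higher, against 501 with all libraries.

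Herpud1, a membrane protein of the ER disposal machinery (chromosome 8, 94386438 to 94395377, plus strand), had 18.4, 23.2 and 22.4 RPKM in knockout testes, against 12.3, 17.5 and 20.6 RPKM in control testes. The groups overlapped, with a log2 difference of 0.35 ± 0.18, a 95% interval of -0.07 to 0.76 and a limma adjusted p of 0.232. An antisense gene, Gm15890, covers 535 of its bases. Dnajb9, a BiP co-chaperone (chromosome 12, 44205897 to 44210068, minus strand), had 16.0, 17.6 and 15.5 RPKM in knockout testes, against 15.8, 16.9 and 14.7 RPKM in control testes. Its groups overlapped as well, with a log2 difference of 0.05 ± 0.09, a 95% interval of -0.16 to 0.26 and a limma adjusted p of 0.723.

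The chaperones that the ATF6 arm is best known for stayed within narrow limits. Hspa5 (chromosome 2, 34771970 to 34776531, plus strand) had 154, 130 and 133 RPKM in knockout testes, against 131, 133 and 131 RPKM in control testes. Hsp90b1 (chromosome 10, 86690209 to 86705509, minus strand) had 54.5, 45.2 and 47.8 RPKM in knockout testes, against 49.0, 49.1 and 49.8 RPKM in control testes. In both genes the 2 ranges overlapped, and the spread was wider among knockouts. The annotation places Gm15344 inside Hsp90b1 on the same strand, over 977 bases, and a pseudogene on the opposite strand, over 4598 bases, so their reads cannot be told apart from its own. The log2 difference of Hspa5 was 0.08 ± 0.11 (95% interval -0.17 to 0.32, limma adjusted p = 0.651), and that of Hsp90b1 was -0.01 ± 0.10 (95% interval -0.24 to 0.22, limma adjusted p = 0.96). The signs for Hspa5 and Dnajb9 flipped under median centring, to -0.015 for Hspa5 and -0.04 for Dnajb9, and under quantile normalization to -0.13 for both.

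Of the 8 members tested in whole testis, 1 was called, where 6.15% of the 8146 genes tested were called in either direction and 4.11% were called higher in knockouts. An unadjusted p under 0.05 was reached by 4 of the 8 members and by 29.1% of all genes tested. In 3 members all knockout testes lay above all control testes, which 24.6% of all genes did, and in 0 members they all lay below, which 8.24% of all genes did. The members' median log2 difference was 0.30, beside 0.090 over all genes tested, and 7 of the 8 were positive, as were 69.3% of all genes; after median centring 5 of the 8 were. The split of called genes depends on scaling: 335 higher and 166 lower as given, 194 higher and 310 lower after median centring.

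**Figure D3:**
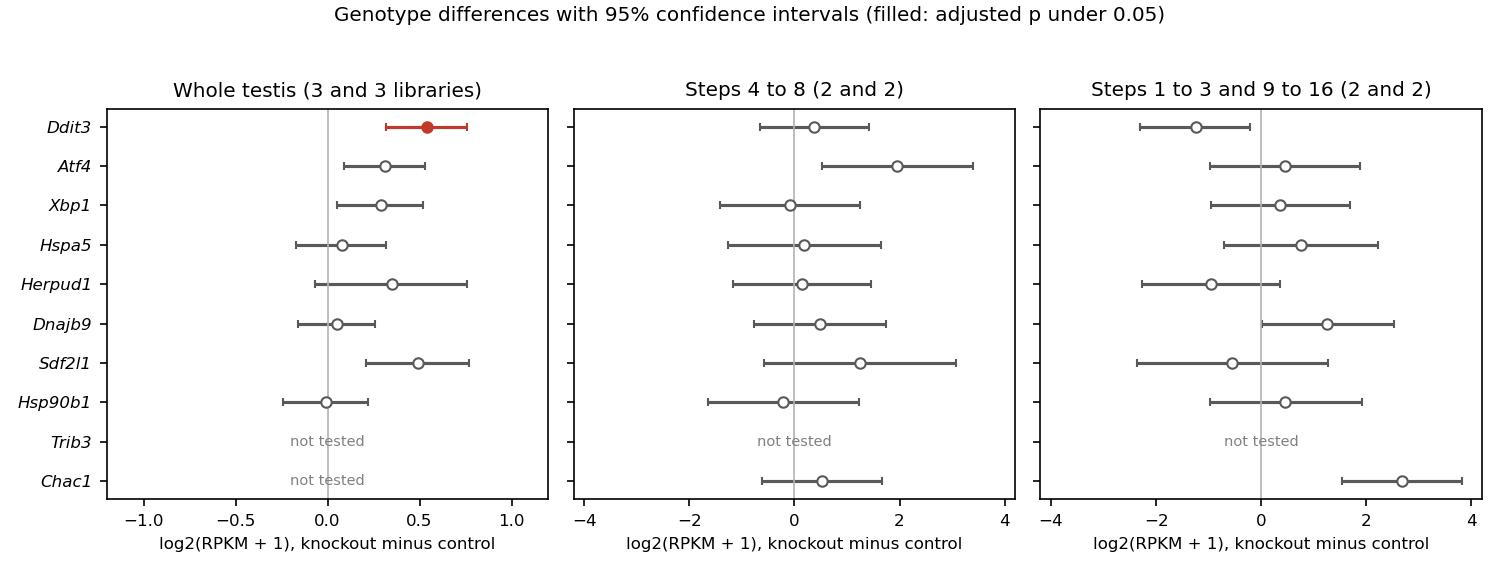
Log2 difference of each member, knockout minus control, with its 95% interval, not adjusted for the number of genes, in whole testis, in the steps 4 to 8 region and in the steps 1 to 3 and 9 to 16 region. The interval of Ddit3 lies above 0 in whole testis (0.54) and below 0 in the steps 1 to 3 and 9 to 16 region (-1.25), where that of Chac1 lies above 0 (2.68). In whole testis those of Atf4, Xbp1 and Sdf2l1 also lie above 0. So do those of Atf4 in steps 4 to 8 and of Dnajb9 in steps 1 to 3 and 9 to 16.

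Sums of cell markers are set beside these values, and the genotypes overlapped in the Sertoli cell, Leydig cell and elongating spermatid sums. The summed level of 20 Sertoli cell markers was 301 to 378 RPKM in knockout testes and 205 to 303 RPKM in control testes, where control 1 had 303 and the others 205 and 207. Of 16 Sertoli cell markers tested, 15 had positive differences, as did 69.3% of all genes, with a median of 0.35 beside 0.090. An unadjusted p under 0.05 in limma was reached by 8 of them, beside 29.1% of all genes. Called higher were 2 of them, beside 4.11% of all genes. The sum of 13 Leydig cell markers was 71.9 to 365 RPKM in knockout testes and 93.9 to 150 RPKM in control testes. The sum of 13 elongating spermatid markers was 7044 to 9739 RPKM in knockout testes and 8226 to 13294 RPKM in control testes. Immediate early genes, which any disturbance of a tissue can raise within minutes, summed to 32.3 to 43.3 RPKM in knockout testes and 25.2 to 29.5 RPKM in control testes. Of 9 immediate early genes tested, 5 were called higher, as were 4.11% of all genes tested. The largest differences were those of Junb (1.10 ± 0.17, limma adjusted p = 0.0176), Ier2 (0.76 ± 0.10, adjusted p = 0.00984), Jun (0.75 ± 0.14, adjusted p = 0.027) and Btg2 (0.65 ± 0.10, adjusted p = 0.018). With no filter on low values these 4 missed the threshold (adjusted p of 0.0555 to 0.0872). Without 1 library at a time the call was lost without control 2, knockout 2 or knockout 3 for Junb (adjusted p up to 0.0831) and Btg2 (up to 0.0852). The call of Jun was lost in these settings and without control 3 (up to 0.113), while Ier2 kept its own (up to 0.0418). The part of these genes and cells in the difference of Ddit3 was not tested.

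The wider pathway was read from 8 lists of 130 genes, of which 129 stood in the table and 85 were tested in whole testis. Of these 85 genes, 0 were called in limma, 15 reached an unadjusted p under 0.05 on the positive side and 1 on the negative side. These were 18.8% of the 85, beside 29.1% of all genes tested, and 6.15% of all genes were called. The median log2 difference was 0.11, beside 0.090 over all genes. With the replicate number as a block 2 were called, namely Asns (adjusted p = 0.0394) and Spcs2 (adjusted p = 0.0334), and limma voom on recovered reads called 4. Over all 8146 genes tested, the block called 740 and limma voom 869. Positive differences numbered 63 of 85 as given, or 74.1% beside 69.3% of all genes, 47 after median centring and 43 after quantile normalization. Without both libraries numbered 1, a setting chosen after seeing the data, 25 were called, beside 2997 of all 8146 genes tested.

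Among targets of the ATF4 arm, 13 of 24 were tested and all 13 had positive differences, as did 69.3% of all genes, with a median of 0.18, while median centring left 10 positive and quantile normalization 9. Ddit4, an inhibitor of the growth kinase mTORC1, averaged 6.90 ± 1.51 RPKM in knockout testes and 3.57 ± 1.49 RPKM in control testes (SD, n = 3 each), with a log2 difference of 0.82 ± 0.23 and a limma adjusted p of 0.0739. Asns, the asparagine synthetase, averaged 11.4 ± 2.42 RPKM in knockout testes and 7.94 ± 0.918 RPKM in control testes, with a log2 difference of 0.46 ± 0.15 and a limma adjusted p of 0.0953. The groups of Ddit4 overlapped and those of Asns did not.

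Among genes of ER disposal the median of 16 tested was 0.06, and -0.03 after median centring. Derl3, a channel component, had a log2 difference of 0.42 ± 0.11 (limma adjusted p = 0.0617), and Os9, a lectin that picks out misfolded glycoproteins, had 0.38 ± 0.10 (adjusted p = 0.063). Among 17 chaperones and folding enzymes the median was 0.11, and -0.05 after quantile normalization. Its lowest p-values were those of the prolyl isomerases Fkbp2 (0.70 ± 0.25, limma adjusted p = 0.122) and Ppib (0.27 ± 0.11, adjusted p = 0.15). Among 19 genes of translocation and secretion the median was 0.08, and -0.01 after median centring. Spcs2, a signal peptidase subunit, had 0.43 ± 0.11 (limma adjusted p = 0.0562), and Mcfd2, a cargo receptor partner, had 0.30 ± 0.08 (adjusted p = 0.0717).

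Genes that serve the ER of germ cells had a median of 0.28 over 9 tested, and 0.08 after quantile normalization. Creb3l4, a membrane-bound transcription factor of spermatids, averaged 65.7 ± 9.66 RPKM in knockout testes and 49.1 ± 2.44 RPKM in control testes (SD, n = 3 each), a log2 difference of 0.40 ± 0.12 with a limma adjusted p of 0.0861. Rnf133, a testis ubiquitin ligase of the ER, had 0.48 ± 0.21 (adjusted p = 0.17). Of the sensors only Atf6b (0.25 ± 0.14, limma adjusted p = 0.276) and D10Wsu52e (0.02 ± 0.08, adjusted p = 0.906), the table's name for the Xbp1 RNA ligase Rtcb, passed the filter. Of 5 tested genes around eIF2alpha, Eif2b5 had 0.15 ± 0.08 (limma adjusted p = 0.275) and Eif2ak1 0.11 ± 0.06 (adjusted p = 0.294). Of 4 tested genes of cell death, Mcl1 had 0.24 ± 0.07 (limma adjusted p = 0.0923) and Bak1 0.16 ± 0.06 (adjusted p = 0.148).

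**Figure D4:**
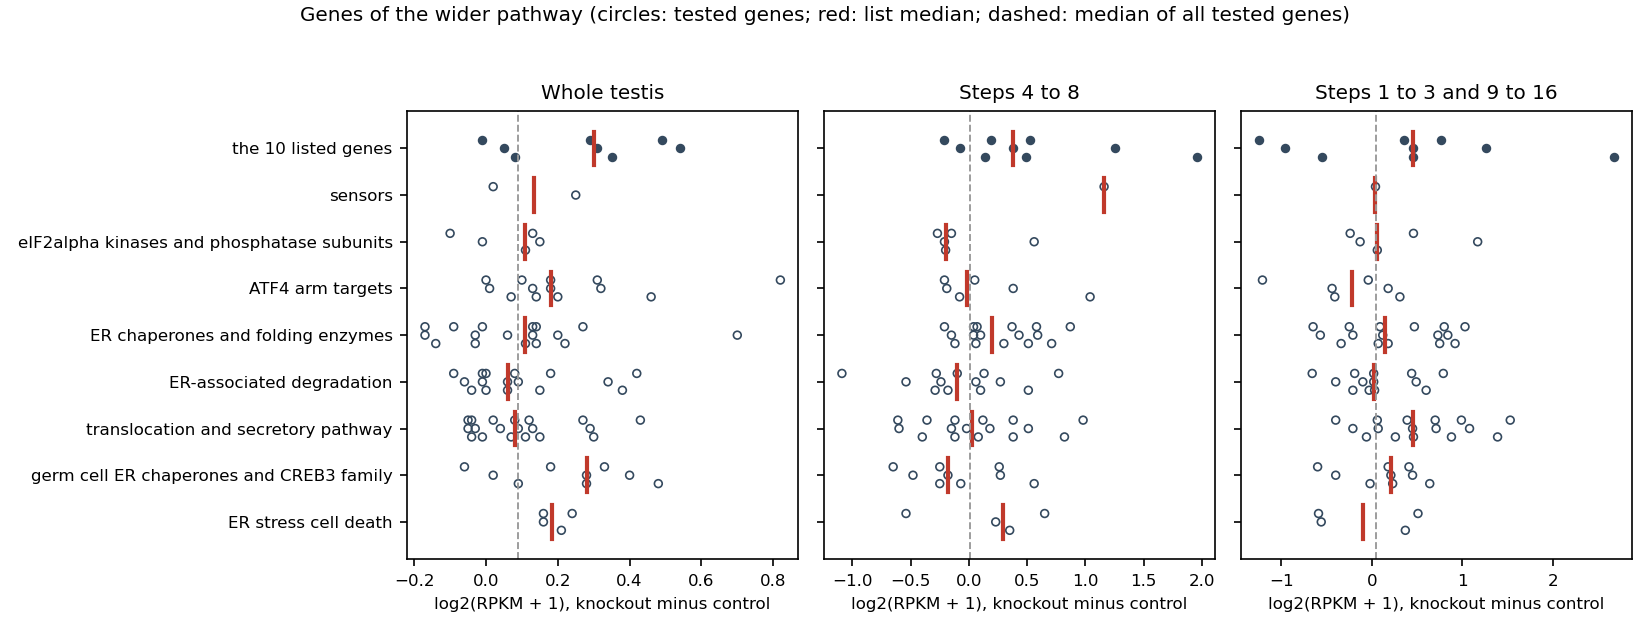
Log2 difference, knockout minus control, of the tested genes of the members and of each pathway list, in whole testis and in the 2 captured regions; points are genes, bars are list medians and the dashed line is the median over all genes tested. In whole testis none of the 13 ATF4 arm targets lies below 0 (3 do after median centring), and their median is 0.18; the germ cell list has a median of 0.28.

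The captured regions asked the same question in tissue cut out as spermatids, where Sertoli cell and spermatocyte markers were also read. With 2 libraries a group, the smallest p that an exact two-sided permutation test can reach is 0.333, so the values below rest on limma over all 8 captured libraries. Replicates of a captured group had a median SD over the members of 0.275 to 0.762 (log2), beside 0.0831 to 0.143 in whole testis. Levels in captured tissue and in whole testis come from different library kits, SMART-seq2 and a directional kit per the labels' protocols, and no difference between them was tested.

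In spermatids of steps 4 to 8, 0 of 9 members tested were called, as were 0% of the 7857 genes tested. An unadjusted p under 0.05 was reached by 1 member, Atf4, and by 3.63% of all genes. Atf4 had 11 and 17.2 RPKM in knockouts, against 4.58 and 1.61 RPKM in controls. Both knockouts lay above both controls. Atf4 had a log2 difference of 1.96 ± 0.64, with a limma adjusted p of 1 after rounding. Over the alternatives the adjusted p was 0.642 or more, and the difference without 1 library at a time was 1.41 to 2.5.

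Ddit3 in the same region had 9.25 and 9.93 RPKM in knockouts, against 8.72 and 5.80 RPKM in controls. The groups did not overlap, though control 1 was nearer to the knockouts than to control 2. Its log2 difference was 0.38 ± 0.46, with a 95% interval of -0.66 to 1.42 and a limma adjusted p of 1. Dnajb9 had 27.9 and 26.2 RPKM in knockouts, against 16.4 and 21.9 RPKM in controls, a log2 difference of 0.49 ± 0.56 (limma adjusted p = 1). These 3 members, Atf4, Ddit3 and Dnajb9, had both knockouts above both controls, which 15.3% of all genes had; 0 members had both below, which 13.6% of all genes had.

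The other members of that region overlapped between genotypes. Sdf2l1 had 16.3 and 19.8 RPKM in knockouts, against 19.2 and 2.15 RPKM in controls, so that its log2 difference of 1.25 ± 0.81 was -0.091 without control 2. Chac1 had 1.19 and 0.146 RPKM in knockouts, against 0.181 and 0.0338 RPKM in controls. Hspa5 had 12.5 and 8.45 RPKM in knockouts, against 10.9 and 7.27 RPKM in controls. Replicates of Sdf2l1 and Chac1 within a genotype differed by more than the genotypes did. Log2 differences were 0.19 for Hspa5, 0.14 for Herpud1, -0.08 for Xbp1 and -0.21 for Hsp90b1, and without 1 library at a time the sign turned for Hspa5 (-0.074 to 0.45), Herpud1 (-0.41 to 0.70) and Hsp90b1 (-0.94 to 0.53). Trib3 had 0 and 5 reads in knockouts, against 0 and 9 reads in controls, and was not tested. The members' median difference was 0.38, beside 0.013 over all genes.

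In the region of steps 1 to 3 and 9 to 16, Chac1 had by far the widest gap among the members, and Ddit3 lay on the other side of its control than in whole testis. Neither was called: 0 of 9 members tested were, as were 0% of all genes. An unadjusted p under 0.05 was reached by 3 members, Chac1, Ddit3 and Dnajb9, and by 6.68% of all genes. In 2 members, Chac1 and Dnajb9, both knockouts lay above both controls, which 20% of all genes had, and in 2, Ddit3 and Herpud1, both lay below, which 15.7% of all genes had.

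Chac1 had 1237 and 646 reads in knockouts of that region, against 12 and 8 reads in controls. These stood for 10.2 and 3.49 RPKM in knockouts, against 0.162 and 0.0517 RPKM in controls. Both knockouts lay above every other library of the series, of which the highest, knockout 1 of steps 4 to 8, had 1.19 RPKM. On the log2(RPKM + 1) scale the difference was 2.68 ± 0.51, which understates the change of so low a gene, and the ratio of means was 63.8. Its limma adjusted p was 0.217, and 0.161 or more over the alternatives. Without 1 library at a time the difference was 2.02 to 3.33, and 2.75 without control 1.

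Ddit3 had 8.18 and 8.28 RPKM in knockouts of that region, against 26.5 and 16.6 RPKM in controls. Both knockouts lay below both controls, and the controls held the highest Ddit3 values of the series. Ddit3 had a log2 difference of -1.25 ± 0.46 (95% interval -2.30 to -0.21), with a limma adjusted p of 0.651. Without control 1, the library that stood apart, it was -0.93. The overlapping Mars had a mean of 0.835 ± 0.0218 RPKM in knockouts and 2.41 ± 0.797 RPKM in controls (SD, n = 2 each), a log2 difference of -0.87 ± 0.41 with a limma adjusted p of 0.768, or -1.11 without control 1. Its part in the value of Ddit3 was not tested.

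Dnajb9 had 38.3 and 36.4 RPKM in knockouts, against 24.6 and 8.97 RPKM in controls. The groups did not overlap, and the log2 difference was 1.26 ± 0.56 (limma adjusted p = 0.747), or 1.94 without control 1. Herpud1 had 4.70 and 6.47 RPKM in knockouts, against 18.4 and 7.28 RPKM in controls. Its log2 difference of -0.96 ± 0.58 (limma adjusted p = 0.816) rested on control 1 and was -0.34 without it. Hspa5 had 26.2 and 84.3 RPKM in knockouts, against 38.7 and 19.4 RPKM in controls. The knockouts of Hspa5 lay on either side of control 1.

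The remaining members overlapped between genotypes as well, with log2 differences of 0.76 for Hspa5, 0.46 for Hsp90b1, 0.45 for Atf4, 0.36 for Xbp1 and -0.55 for Sdf2l1. Without control 1 they were 1.24 for Hspa5, 0.13 for Hsp90b1, -0.40 for Atf4, -0.18 for Xbp1 and -1.13 for Sdf2l1. Single libraries held most reads of the low members. Trib3 had 0 and 737 reads in knockouts, against 11 and 0 reads in controls, and Xbp1 had 0.06 and 2.66 RPKM in knockouts, against 0.06 and 1.23 RPKM in controls. In both genotypes Xbp1 was high in replicate 2 and low in replicate 1. The members' median difference was 0.45, beside 0.043 over all genes. Without control 1 it was -0.18, beside -0.011 over all genes, and 2 members, Chac1 and Dnajb9, reached an unadjusted p under 0.05, as did 10.3% of all genes.

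Marker sums differed between some of the captured groups. The Sertoli cell sum was 133 to 256 RPKM in knockouts and 67.6 to 130 RPKM in controls of steps 4 to 8, and 300 to 389 RPKM in knockouts and 132 to 173 RPKM in controls of steps 1 to 3 and 9 to 16. The elongating spermatid sum was 10138 to 10426 RPKM in knockouts and 17979 to 21320 RPKM in controls of steps 4 to 8, and 12730 to 29833 RPKM in knockouts and 21331 to 96478 RPKM in controls of the other region. The sum of 13 round spermatid markers overlapped between genotypes in steps 4 to 8. In the other region it was 749 to 865 RPKM in knockouts and 1104 to 1231 RPKM in controls. Of those 13 genes, 9 had positive differences there, knockout minus control. The sum of 12 spermatocyte markers overlapped in steps 4 to 8. In the other region it was 99.7 to 124 RPKM in knockouts and 61 to 90.9 RPKM in controls. Leydig cell markers summed to 4.24 to 91.2 RPKM over the 8 captured libraries, and the lowest and the highest were both controls. The immediate early genes were lower there than in whole testis, at 5.09 to 12.4 RPKM. The part of these cells in the members' values was not tested.

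The pathway lists gave 0 calls in either region among 70 genes tested, as over all genes. In steps 4 to 8 their median log2 difference was 0.06, beside 0.013 over all genes. An unadjusted p under 0.05 was reached by 3.63% of all genes and by 1.43% of the 70, which was 1 gene. This was Hspa13, an ER ATPase of the Hsp70 family, with 0.87 ± 0.38 (limma adjusted p = 1). In steps 1 to 3 and 9 to 16 the median was 0.15, beside 0.043 over all genes. There 4 genes reached that level, or 5.71%, beside 6.68% of all genes. Shmt2, a mitochondrial enzyme of one-carbon metabolism and an ATF4 target, averaged 0.0314 ± 0.0037 RPKM in knockouts and 1.39 ± 0.218 RPKM in controls (SD, n = 2 each), a log2 difference of -1.21 ± 0.35 (limma adjusted p = 0.498). Ssr4 and Ostc, parts of the machinery that moves chains into the ER and glycosylates them, had 1.53 ± 0.48 (limma adjusted p = 0.529) and 1.08 ± 0.45 (adjusted p = 0.731), and Eif2s1, the eIF2alpha subunit itself, had 1.17 ± 0.43 (adjusted p = 0.651). Without control 1 of that region the list median was -0.06, beside -0.011 over all genes. The values were then -1.12 for Shmt2, 1.58 for Ssr4, 1.46 for Ostc and 1.31 for Eif2s1.

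By list, in steps 4 to 8 the genes with the lowest p were Atf6b among the sensors (1.16) and Eif2s1 (0.56) and Eif2ak1 (-0.20) around eIF2alpha. Among ATF4 targets they were Aars, the alanine tRNA ligase (1.04), and Slc3a2, an amino acid transporter subunit (0.38). Hspa13 was followed by Sdf2 (0.59) among the chaperones, and ER disposal had Erlec1, a lectin (0.77), and Ufd1l (-1.09). Ostc (0.98) and Ssr4 (0.82) led translocation, Hspa2, a testis chaperone (0.56), and Creb3 (-0.48) the germ cell list, and Bcl2l11 (-0.54) and Bax (0.65), which promote cell death, the last. Of the immediate early genes Jund had -0.84 and Nr4a1 -0.21. All of these log2 differences had a limma adjusted p of 1.

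In steps 1 to 3 and 9 to 16 Jund, a subunit of the AP-1 transcription factor, had a log2 difference of -1.73 ± 0.40 (limma adjusted p = 0.32), and -1.39 without control 1. Nr4a1 had -0.42 there, or -0.56 without control 1. Ppib had 1.03 and Hspa13 0.84 among the chaperones, and without control 1 the value of Ppib was 0.27 and that of Hspa13 0.96. Faf2 (0.79) and Derl1 (0.60) of ER disposal had 0.62 and 0.40 without that library. The other genes so chosen were Atf6b (0.04, or -0.53 without control 1), Eif2ak1 (0.46, or 0.40), Aars (-0.44, or -0.71), Creb3 (0.64, or 0.51), Hspa2 (0.45, or 0.42), Bcl2l11 (-0.59, or -0.47) and Mcl1 (-0.56, or -0.57). None was called in either fit.

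Whether the genotype difference itself varied between the captured regions was tested in the same limma fit. None of 9 members was called (0% of all genes were), and 2, Ddit3 and Chac1, reached an unadjusted p under 0.05, as did 2.84% of all genes. For Ddit3 the difference in steps 4 to 8 exceeded that in the other region by 1.64 ± 0.66 (limma adjusted p = 1). For Chac1 it was smaller by the same measure, at -2.16 ± 0.72 (limma adjusted p = 1). Sdf2l1 had 1.80 ± 1.14, Atf4 1.5 ± 0.90 and Herpud1 1.10 ± 0.82. Without control 1 of steps 1 to 3 and 9 to 16 the values were 1.32 for Ddit3, -2.23 for Chac1, 2.38 for Sdf2l1, 2.35 for Atf4 and 0.49 for Herpud1. The members' median was -0.44, beside -0.041 over all genes, and without that library 0.09, beside 0.001 over all genes. Chac1 and Atf4 then reached an unadjusted p under 0.05, and Ddit3 did not. The pathway lists had a median of -0.07 and 0 calls.

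Between the regions, steps 4 to 8 against steps 1 to 3 and 9 to 16, the chaperones had lower values in the first, short of the threshold. In knockouts Hspa5 averaged 10.5 ± 2.88 RPKM in steps 4 to 8 and 55.2 ± 41 RPKM in the other region (SD, n = 2 each), and in controls 9.09 ± 2.57 RPKM in steps 4 to 8 and 29.1 ± 13.6 RPKM in the other region. In both genotypes the ranges of the regions did not overlap. Log2 differences were -2.09 ± 0.65 in knockouts (limma adjusted p = 0.399) and -1.52 ± 0.65 in controls (adjusted p = 0.459). Hsp90b1 had -1.91 ± 0.64 in knockouts (limma adjusted p = 0.405) and -1.24 ± 0.64 in controls (adjusted p = 0.51). Without control 1 of the other region the values in controls were -1.04 for Hspa5 and -1.57 for Hsp90b1.

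Ddit3 differed between the regions in its values for controls, with 7.26 ± 2.06 RPKM in steps 4 to 8 and 21.6 ± 6.99 RPKM in the other region (log2 difference -1.44 ± 0.46, limma adjusted p = 0.395, and -1.12 without control 1 of the other region). In knockouts it had 9.59 ± 0.481 RPKM in steps 4 to 8 and 8.23 ± 0.0734 RPKM in the other region (0.20 ± 0.46, adjusted p = 0.897). Chac1 showed the reverse layout, at -2.16 ± 0.51 in knockouts (limma adjusted p = 0.399) and 0.00 in controls to 2 decimals (± 0.51, adjusted p = 1; 0.071 without control 1 of the other region). An unadjusted p under 0.05 was reached by 3 of 9 members in knockouts, where 10.4% of all genes reached it, and by 2 of 9 in controls, where 10.6% did. Without control 1 of the other region, 1 member in controls, Atf4, reached it, as did 5.78% of all genes. The adjusted threshold was met by 0 members and 0% of all genes in either genotype. The pathway lists had median differences of -0.06 in knockouts and -0.12 in controls.

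The order of levels per kilobase of exon was another one in captured spermatids than in whole testis, with the kits differing. Dnajb9 came first in steps 4 to 8, at 44.2 ± 2.01 in knockouts and 31.3 ± 6.41 in controls (SD, n = 2 each), and Hspa5 had 11.3 ± 3.11 in knockouts and 9.80 ± 2.77 in controls. In knockouts of that region Dnajb9, Sdf2l1 and Ddit3 followed each other without overlap, and from Ddit3 down to Hspa5 each neighbour overlapped with the next. In controls the first 6 genes, Dnajb9 to Hspa5, overlapped from each to the next. Atf4, in place 7, stood below its neighbour Hspa5, while Sdf2l1 spread widely enough to overlap with it. In steps 1 to 3 and 9 to 16 Hsp90b1 led in knockouts at 74.9 ± 20.8 and Ddit3 led in controls at 69.5 ± 22.5, both overlapping with the next gene. Xbp1, Chac1 and Trib3 held the last places in both control groups.

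Likeness to Ddit3 was measured as the root mean square difference of log2(RPKM + 1), centred within whole testis and within each captured region, over 14 libraries and 138 genes (the other members and the pathway genes). The nearest were Shmt2 (0.258), Mcl1, an inhibitor of cell death (0.3), and Ddit4 (0.303). Ddit3's own root mean square around its centre was 0.427, so a gene with no variation would lie at that distance. The nearest member was Herpud1 at 0.410, in place 17. Chac1 was the farthest of all 138 genes, at 1.123. The ranking rests in part on control 1 of steps 1 to 3 and 9 to 16. Over the 13 libraries without it, a setting chosen after seeing the data, the nearest were Slc7a5 (0.201), an amino acid transporter, Mcl1 (0.226) and Dnajb11 (0.229), a BiP co-chaperone. Shmt2 was then in place 8, Ddit4 in place 13, Herpud1 in place 98 and Chac1 again last.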

How the data were processed

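RNA sequencing values of 14 mouse testis libraries in 6 groups were used. Per the labels' protocols, RNA was taken with Isogen, whole testis libraries were made with the NEBNext Ultra Directional kit and captured ones by SMART-seq2. The submitters' processing notes name mm10, HISAT2 2.1.0, Trim Galore 0.4.0 and FastQC. How reads were counted (tool, annotation, strand) is not stated in these sources. The authors deposited log2 RPKM values for 25965 genes, with 0 reads entered as 0.9 read and the gene span as length. The tests had been planned for RPKM, so the log2 values were turned back first.

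Whole reads could be recovered: 99.87% of values came within 0.05 of a whole number of reads. Below 1000 reads, where 74.8% of values fell, 100% did. Genotypes were compared with limma 3.58.1 (R 4.3.3) on log2(RPKM + 1), with an intensity trend, two-sided, adjusted by Benjamini-Hochberg over all genes tested. Whole testis had its own fit (RPKM of at least 1 in 3 or more libraries, 8146 genes). The 8 captured libraries shared a fit with 4 group means (RPKM of at least 1 in 2 or more, 7857 genes). The fit was also run on simulated counts with the same dispersion for every gene. That run does not show how the fit behaves at the spread of these libraries. The series text speaks of replicate animals, while nothing says whether the captured regions share them.

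Same-numbered whole testis libraries of the 2 genotypes had r of 0.329, 0.362 and 0.148 over genes. Differently numbered ones had r from -0.442 to 0.299. Nothing says that the genotypes share a replicate number, so the main fit had no block. A fit with the number as a block was made as an alternative. Coordinates are those of the deposited table, and overlaps and exon lengths come from GENCODE on the same build. Promoters came from RefSeq and matched for all 10 genes.

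The members and the lists of other genes were chosen with earlier results of these data known. All members are named; from each pathway list and the immediate early genes, every called gene up to the 4 largest differences, or else the 2 with the lowest p, was to be named in each comparison. This was done for the knockout-control comparisons and not between regions. Lists of cell markers are given by their sums, and some also by counts of genes. Alternatives were pseudocounts of 0.1 and 4, no filter, a mean of at least 5 RPKM, median centring, quantile normalization, limma voom on recovered reads, the block, and leaving out each library. Leaving out both whole testis libraries numbered 1, and control 1 of steps 1 to 3 and 9 to 16 in the likeness ranking, was added after seeing the data. Differences between library kits were not tested.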

Additional observations from a re-analysis of the deposited data

Results flagged for a closer look

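Ddit3 lay on different sides of its controls in different tissue. Every knockout library lay above every control library in whole testis (log2 difference 0.54, limma adjusted p = 0.0234) and in steps 4 to 8 (0.38, adjusted p = 1), and every knockout lay below every control in steps 1 to 3 and 9 to 16 (-1.25, adjusted p = 0.651). Of all genes tested, 24.6%, 15.3% and 15.7% lay apart in the same direction, in that order. The 95% interval in steps 4 to 8 spanned 0, at -0.66 to 1.42. Between the captured regions the difference of these differences was 1.64 ± 0.66 (limma adjusted p = 1), or 1.32 without control 1 of steps 1 to 3 and 9 to 16, so it did not pass the threshold. Between whole testis and either region it was not tested, because the library kits differ. Control 1 of steps 1 to 3 and 9 to 16 stood apart in its elongating spermatid genes, and without it the value of -1.25 was -0.93.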

How the results depend on the processing

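In whole testis 501 genes were called, against 171 with no filter, 216 with a mean of at least 5 RPKM, 869 in limma voom and 2997 without both libraries numbered 1, and 76 to 1531 without 1 library at a time. Members called were 1, against 0 with no filter, 2 with a mean of at least 5 RPKM, 2 in limma voom, 4 without both libraries numbered 1, and 0 to 4 without 1 library at a time. Pathway genes called were 0, against 4 in limma voom, 2 with the replicate block, 25 without both libraries numbered 1, and 0 to 10 without 1 library at a time. In steps 4 to 8, 0 genes were called, against 1 with a mean of at least 5 RPKM, 1 after median centring and 0 to 1 without 1 library at a time.

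The replicate block kept the call of Ddit3 (adjusted p = 0.0344), raised the genes called in whole testis to 740, and turned no other call among the named genes than those of Asns and Spcs2. Within a captured region, same-numbered libraries of the 2 genotypes correlated at 0.061 and 0.099, and differently numbered ones at -0.061 and -0.099. With 2 libraries a group the deviations mirror each other, so these values cannot tell whether the libraries are paired. The block called 0 members there.

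Signs turned for Hspa5 in whole testis (-0.015 median centring, -0.13 quantile normalization, -0.0024 without both libraries numbered 1), for Dnajb9 there (-0.04 median centring, -0.13 quantile normalization), and for D10Wsu52e there (-0.074 median centring, -0.051 quantile normalization). They also turned for Atf6b in steps 1 to 3 and 9 to 16 (-0.0086 with a pseudocount of 4, -0.0089 after median centring) and for Chac1 between regions in controls (0.014 after median centring). Without 1 library at a time they turned in whole testis for Hsp90b1 (-0.084 to 0.048) and D10Wsu52e (-0.025 to 0.092). In steps 4 to 8 they turned for Hspa5 (-0.074 to 0.45), Herpud1 (-0.41 to 0.70), Sdf2l1 (-0.091 to 2.59), Hsp90b1 (-0.94 to 0.53), Eif2ak1 (-0.48 to 0.077), Slc3a2 (-0.32 to 1.07) and Nr4a1 (-0.46 to 0.041). In steps 1 to 3 and 9 to 16 they turned for Atf4 (-0.40 to 1.30), Xbp1 (-0.53 to 1.25), Hspa5 (-0.066 to 1.58), Sdf2l1 (-1.13 to 0.03), Atf6b (-0.53 to 0.61) and Aars (-0.96 to 0.076). Between regions they turned in the genotype difference for Xbp1 (-1.33 to 0.45), Hspa5 (-1.39 to 0.25) and Hsp90b1 (-1.40 to 0.061), and in controls for Xbp1 (-1.03 to 0.051), Dnajb9 (-0.36 to 1.00) and Chac1 (-0.10 to 0.095). The cause of these turns was not tested.

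With 3 against 3 libraries the smallest exact two-sided permutation p is 0.1, and calls rest on the spread shared over genes. Trib3 and Chac1 had at most 35 reads in any whole testis library and did not pass the filter.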
